A study of Drosophila melanogaster with 2 samples.

Results

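The genes of the Brahma complex were examined for binding of the tagged Tonalli protein in whole Drosophila melanogaster embryos. The 10 genes were named by their products, not by any measured value: brm, mor, Snr1, Bap60, Bap55 and Bap111 for the shared core, osa for the BAP form, and Bap170, polybromo and e(y)3 for the PBAP form. They were 10 of the 13968 protein-coding genes on the assembled chromosome arms. The series holds 1 group of 2 biological replicates: embryos aged 0-24 hour of the tna-GFP strain, which carries a tna-eGFP insertion, immunoprecipitated with antibody to GFP. The promoter that drives the fusion is not stated in the labels. An untagged or input library was not analysed here, and with 1 group there is no contrast, so each count is set beside the same count over all genes and no test across samples was made. All embryonic stages and tissues were pooled, so strong binding in a few cells and weak binding in many cannot be told apart.

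Brahma complexes are SWI/SNF chromatin remodellers that use ATP to slide or evict nucleosomes. The ATPase Brm works with a core of scaffold, actin-related and HMG-box subunits, and the complex takes its BAP form with Osa or its PBAP form with Polybromo, Bap170 and e(y)3 (also called SAYP). Several of these genes belong to the Trithorax group, which keeps homeotic genes active. Mutations of tna (tonalli), whose product has the SP-RING domain typical of SUMO ligases, interact genetically with brm and osa.

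Sequences at the starts of 4 of the genes show the range of motif content found among them. Each runs 5′ to 3′ on the gene's own strand, which is the minus strand for all 4, from 150 bases before the annotated start to the 30th transcribed base. They come from the RefSeq genome of the dm6 assembly at chr3R:17718321-17718500 (osa), chr3R:24805230-24805409 (polybromo), chr3R:15972884-15973063 (mor) and chr3L:15982840-15983019 (brm). Capitals mark matches on either strand to CGATA, the string bound by the boundary protein BEAF-32, which reads TATCG on the opposite strand. They also mark TATCGATA, the DNA replication-related element (DRE) bound by Dref, which holds CGATA once on each strand and so counts as 2 matches to it. The osa window, shown because it carried the strongest peak of the 10, held 8 matches, the DRE among them in the last bases before the start. The polybromo window held 4, the mor window 2 from a single DRE, and the brm window 0.
osa: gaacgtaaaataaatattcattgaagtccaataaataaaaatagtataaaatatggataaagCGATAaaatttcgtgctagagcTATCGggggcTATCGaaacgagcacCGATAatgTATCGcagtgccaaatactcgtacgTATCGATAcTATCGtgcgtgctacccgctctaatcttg
polybromo: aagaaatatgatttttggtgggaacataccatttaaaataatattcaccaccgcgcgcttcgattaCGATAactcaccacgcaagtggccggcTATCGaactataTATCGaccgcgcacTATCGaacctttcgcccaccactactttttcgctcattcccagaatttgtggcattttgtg
mor: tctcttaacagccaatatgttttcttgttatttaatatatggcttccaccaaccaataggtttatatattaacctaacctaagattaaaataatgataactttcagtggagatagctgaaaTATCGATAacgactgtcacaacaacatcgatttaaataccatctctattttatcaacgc
brm: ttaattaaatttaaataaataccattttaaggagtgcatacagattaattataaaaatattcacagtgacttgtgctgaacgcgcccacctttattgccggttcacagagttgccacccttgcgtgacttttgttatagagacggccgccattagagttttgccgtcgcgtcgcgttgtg

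The authors deposited ranked peak lists and shorter thresholded lists, 1 of each per replicate and 2 of each from both replicates. A low irreproducible discovery rate (IDR) means that a peak held a rank both high and alike in 2 paired lists. Every thresholded peak had an IDR of at most 0.01. The thresholded lists held 2580 peaks (the conservative list), 3500 (the other list from both replicates), 2217 (replicate 1) and 2669 (replicate 2), against 110091 to 126713 in the ranked lists. A promoter peak has its summit within 500 bp of an annotated start of the gene. Signal is the authors' value per peak, with no scale stated to be shared between lists, so it was compared only within a list. The depth of the libraries is unknown.

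Among the thresholded peaks, 3 of the 10 genes had a promoter peak in the conservative list (Bap60, Bap55 and polybromo), against 18.2% of all genes. The other list from both replicates added Bap170 for 4 of 10, against 22.2% of all genes. The replicate 1 list held the same 4 genes, against 16.4% of all genes. The replicate 2 list held 2, Bap55 and polybromo, against 17.7% of all genes. With summits anywhere in the body counted too, the genes numbered 3 of 10 (all genes 19.7%) in the conservative list, 5 (24.3%) in the other list from both, 4 (18.0%) in replicate 1 and 3 (19.1%) in replicate 2. The genes added by the body were osa in the other list from both and osa in replicate 2. With so few genes, 1 gene moves the share by 10 percentage points, and nothing particular to the complex is read from these counts.

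By subunit role, the conservative list held promoter peaks at 2 of the 6 core genes, at the BAP-specific gene osa none, and at 1 of the 3 PBAP-specific genes, against 18.2% of all genes. The replicate 1 list held 2 of 6 core genes and 2 of 3 PBAP-specific genes, against 16.4% of all genes. The replicate 2 list held 1 of 6 core genes and 1 of 3 PBAP-specific genes, against 17.7% of all genes. No thresholded list held a promoter peak at osa. Groups of 1 to 6 genes allow no test of a difference between the forms.

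All 10 genes had a promoter peak of some IDR in every ranked list, where 76.4% of all genes had one in the list paired with the conservative one. The strongest promoter peak of each gene was therefore ranked among all 13968 genes, the strongest being at percentile 100 and genes without a peak counting as 0. In the ranked list of both replicates the 10 genes had a median percentile of 65.1, from 42.3 for e(y)3 to 99.9 for osa, and 6 lay above 50. The median was 77.9 in replicate 1, with 8 genes above 50, and 61.5 in replicate 2, with 7 above 50. Median signals of the 10 genes against all genes were 76.7 against 51.9 in both replicates, 57.8 against 24.3 in replicate 1 and 42.3 against 32.9 in replicate 2. Genes without a promoter peak count as 0 in these all-gene medians, and all 10 genes had one. Over the 9770 genes with a promoter peak in both single-replicate lists the medians were 57.8 against 33.0 in replicate 1 and 42.3 against 44.5 in replicate 2, so the direction in replicate 2 depends on how genes without a peak are counted.

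**Figure D1:**
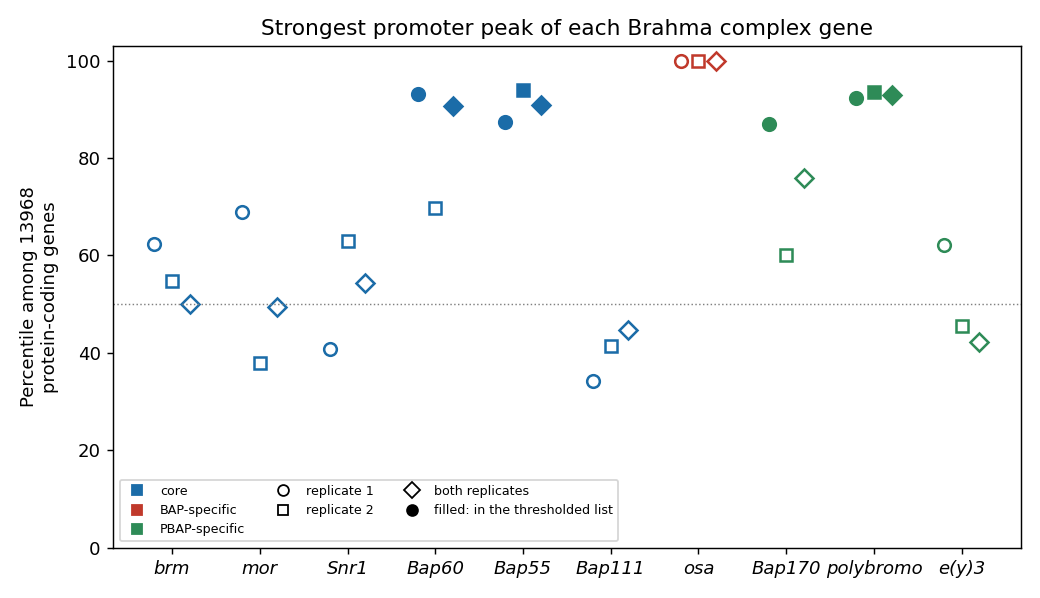
Percentile, among 13968 protein-coding genes, of the strongest promoter peak of each Brahma complex gene (vertical axis, 100 is the strongest) in the ranked lists of replicate 1 (circles), replicate 2 (squares) and both replicates (diamonds). Filled symbols are peaks kept in the matching thresholded list: the symbols of osa lie at the top, at 99.9, and are open, while those of polybromo lie between 92.2 and 93.6 and are filled.

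The gene with the strongest peak was osa, which encodes the ARID-domain subunit that defines the BAP form (FBgn0261885, 3R 17687818 to 17718350, minus strand, 30.5 kb, in dm6 as for all coordinates given). Its promoter peak lay at 3R 17718240 to 17718550, with the summit 38 bp upstream of the start, within the run of CGATA matches printed above. The signal was 845 in the ranked list of both replicates, 432 in replicate 1 and 422 in replicate 2, with single-replicate summits 61 bp and 15 bp upstream. The peak was number 15 of 115157 in both replicates, number 15 of 126713 in replicate 1 and number 10 of 110091 in replicate 2. In both single-replicate lists it stood far above the other 9 genes, whose strongest promoter peaks reached 132 in replicate 1 and 124 in replicate 2. Its IDR was 1e-05 in every ranked list, the lowest value these files hold, and its q-value was 0.00170 in the list of both, 0.00246 in replicate 1 and 0.000850 in replicate 2. Weaker peaks had the same q-values, so these do not set osa apart. Examples were polybromo (signal 234) in the list of both and the related gene BCL7-like in replicate 1 (342) and replicate 2 (261).

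Despite these values the osa promoter peak was in none of the 4 thresholded lists. With peaks of the ranked list at an IDR of at most 0.01 taken instead, 4 of the 10 genes had a promoter peak, osa included, against 18.6% of all genes. On the assembled arms 88 of the 2668 peaks at that IDR (3.30%) were left out of the conservative list, 119 of 3619 (3.29%) of the other list from both, 62 of 2276 (2.72%) of replicate 1 and 118 of 2787 (4.23%) of replicate 2. The median signal of the peaks left out of the conservative list was 182, against 169 for the listed peaks. The medians were 96.7 against 98.6 in replicate 1 and 93.6 against 92.0 in replicate 2. In each of the 4 lists no left-out peak was stronger than that of osa. Of the 88, 58 lay at promoters of protein-coding genes, and after osa the strongest of these was at kibra, a Hippo pathway gene, with a signal of 740. Per the deposited notes, each thresholded list derives from 1 file more than its ranked list, and that file was not analysed here, so the reason for the omission was not tested. The nearest conservative summits lay 31257 bp and 15020 bp from the osa start, on the body side and the upstream side.

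Within the body of osa, signal was lower. The strongest body peak in the list of both replicates had a signal of 117, at 14488 bp downstream of the start, and with an IDR of 0.0374 it was not kept. The other list from both replicates kept an intronic peak at 3R 17700708 to 17701117, 17437 bp downstream of the start, with a signal of 109, an IDR of 0.00372 and a q-value of 0.178. In replicate 2 the matching peak had a signal of 104 and was kept, as was a neighbour of 74.9 at 18091 bp. In replicate 1 the overlapping peak had a signal of 26.6 and an IDR of 0.330 and was not kept. The intronic peaks that were kept rest on replicate 2, whereas the promoter peak was high in both replicates.

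Of the PBAP-specific genes, polybromo, which encodes a subunit with several bromodomains (FBgn0039227, 3R 24799967 to 24805259, minus strand), was the one with a promoter peak in all 4 thresholded lists. The peak at 3R 24805072 to 24805481 had its summit 18 bp upstream of the start and a signal of 234 in both replicates, 120 in replicate 1 and 120 in replicate 2. Its percentile was 92.8 in both, 92.2 in replicate 1 and 93.6 in replicate 2, the closest match between replicates of any of the 10 genes except osa. The conservative peak had an IDR of 0.000374 and a q-value of 0.00170, and the IDR was 0.000401 in replicate 1 and 0.000413 in replicate 2. Among the 2072 conservative promoter peaks it was number 675 by signal, directly between those of sba and hfw. It was the strongest conservative promoter peak of the 10 genes.

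The replicates differed at Bap170, which encodes an ARID-domain subunit (FBgn0042085, 2R 6636512 to 6642358, plus strand). Its strongest peak in the list of both replicates, at 2R 6636308 to 6636717 with the summit 1 bp downstream of the start, had a signal of 96.1. The IDR was 0.0725 in the ranked list behind the conservative one, where it was not kept, and 0.00504 in the other list from both, where it was. In replicate 1 peaks of 79.0 and 65.4, at 185 bp upstream and 18 bp downstream, were kept. In replicate 2 the strongest promoter peak was 41.0, at 498 bp downstream, and the peak over the start itself was 37.5 with an IDR of 0.553. The percentile was 86.9 in replicate 1 and 60.0 in replicate 2.

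The last PBAP-specific gene, e(y)3, encodes a PHD-finger subunit (FBgn0087008, X 19626548 to 19638369, minus strand) and had the weakest promoter peak of the 10 in the list of both replicates. Its promoter signal was 42.0 in both replicates, 31.4 in replicate 1 and 29.4 in replicate 2, with summits 417, 421 and 117 bp downstream of the start. A stronger ranked peak lay in an intron 6615 bp downstream, with a signal of 100 in both replicates, 39.1 in replicate 1 and 55.1 in replicate 2. Its IDR was 0.0566 in the ranked list behind the conservative one and 0.0122 in the other ranked list from both replicates, just above the threshold of 0.01. None of the 4 thresholded lists held a peak on e(y)3.

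Among the core genes, Bap60 and Bap55 had conservative promoter peaks. Bap55 encodes an actin-related protein (FBgn0025716, 2R 17429353 to 17430963, minus strand). Its peak at 2R 17430814 to 17431223 was kept in all 4 thresholded lists, with a signal of 200 in both replicates, 81.8 in replicate 1 and 124 in replicate 2. The conservative IDR was 0.000710 and the q-value 0.00523. The summit lay 56 bp upstream of the Bap55 start but 13 bp from the start of Lhr, transcribed the other way, so the peak cannot be assigned to Bap55 alone.

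Bap60 encodes a SWIB-domain subunit of the core (FBgn0025463, X 13157445 to 13159508, minus strand). Its peak at X 13159449 to 13159858 had a signal of 197 in both replicates, an IDR of 0.00793 and a q-value of 0.00604. The replicates differed: replicate 1 had 132, kept at an IDR of 0.000104, and replicate 2 had 50.5, not kept at an IDR of 0.0361. The summit lay 146 bp upstream of Bap60 and 50 bp from the start of CG12096. A further conservative peak 349 bp upstream had a signal of 8.58 and a q-value of 0.734, and it shared its pair of replicate peaks with the stronger one.

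The 4 remaining core genes had no thresholded peak in any list. They were brm, the ATPase gene (FBgn0000212, 3L 15970082 to 15982869, minus strand), mor, a scaffold subunit gene (FBgn0002783, 3R 15968134 to 15972913, minus strand), Snr1, the SNF5 homologue (FBgn0011715, 3R 5470926 to 5472754, plus strand), and Bap111, an HMG-box subunit gene (FBgn0030093, X 9149309 to 9151976, plus strand). At brm the strongest promoter peak had a signal of 51.8 in both replicates, 31.6 in replicate 1 and 36.6 in replicate 2. At mor the signals were 51.3 in both, 36.6 in replicate 1 and 23.6 in replicate 2. These mor summits lay 102, 65 and 312 bp upstream of its start. The replicate 2 summit was nearer to the start of Hel89B, 385 bp upstream of that of mor, than to mor's own. A replicate 2 peak 56 bp downstream of the mor start had a signal of 6.59. The percentile of brm among all genes was 49.9 in both replicates, 62.2 in replicate 1 and 54.7 in replicate 2. That of mor was 49.5 in both, 69.0 in replicate 1 and 38.0 in replicate 2. The replicates thus placed mor on opposite sides of the middle, but by peaks at different places.

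At Snr1 the promoter signal was 57.3 in both replicates, 19.9 in replicate 1 and 43.6 in replicate 2, with the summit in a coding exon 289 bp downstream of the start. At Bap111 it was 45.2 in both, 16.5 in replicate 1 and 26.3 in replicate 2, from peaks at different places. The summit in the list of both was nearer the start of fh, at 162 bp, than its own, at 400 bp. The replicate 1 summit lay 219 bp upstream, also nearer fh, and the replicate 2 summit 172 bp downstream of the Bap111 start. The percentile of Snr1 was 54.4 in both, 40.8 in replicate 1 and 63.0 in replicate 2, and that of Bap111 was 44.7, 34.1 and 41.4. Away from starts, brm had an intronic peak of 89.5 at 4735 bp downstream, with an IDR of 0.0407, and in replicate 2 mor had an intronic peak of 57.6 at 524 bp, with an IDR of 0.0200. Neither was kept.

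**Figure D2:**
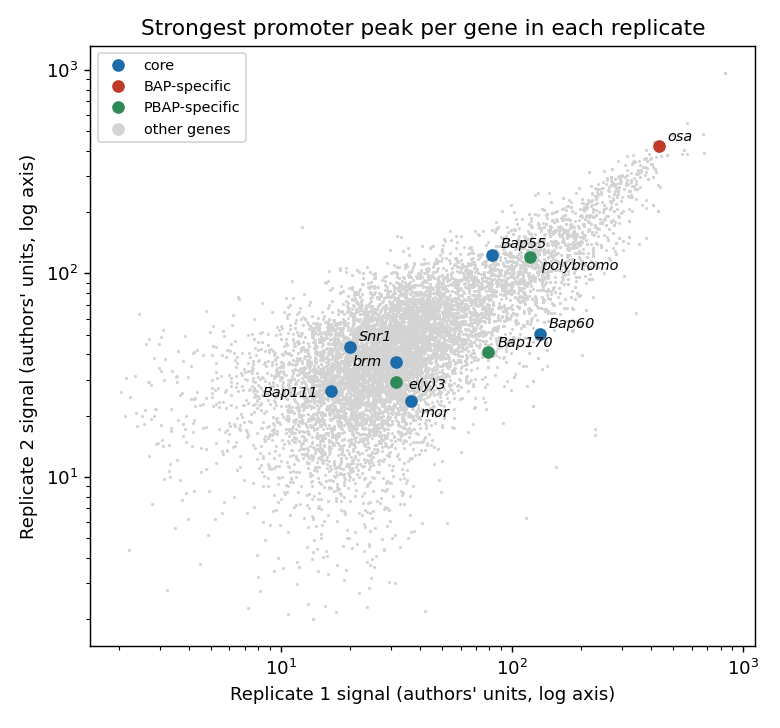
Signal of the strongest promoter peak of each gene in replicate 1 (horizontal, log axis) and replicate 2 (vertical, log axis), for the 9770 genes with a peak in both ranked lists; coloured points are the Brahma complex genes by subunit role and grey points all other genes. The osa point stands at 432 and 422 near the top of the cloud, and Bap60 (132 and 50.5) and Bap170 (79.0 and 41.0) lie on the lower side of the grey cloud, among other genes.

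Ordered by signal in the list of both replicates, the genes ran osa, polybromo, Bap55, Bap60, Bap170, Snr1, brm, mor, Bap111 and e(y)3. The same 4 genes, osa, polybromo, Bap55 and Bap60, led in each replicate, though Bap60 stood at the second place in replicate 1 and the fourth in replicate 2. The neighbours Snr1, brm and mor, at 57.3, 51.8 and 51.3, came in the reverse order in replicate 1, so they did not differ beyond the spread between replicates. Over the 9770 genes with a promoter peak in both single-replicate lists the log2 signals had a Pearson correlation of 0.729, a description across genes that are not replicates.

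Head-to-head neighbours were common among these genes. At 8 of the 10 another protein-coding gene started within 500 bp in the opposite direction, against 3483 of all 13968 genes (24.9%). The exceptions were osa, 1104 bp from Pxt, and polybromo, 2362 bp from CG6980, so these peaks lay at starts with no such neighbour. The partners were Arl1 for brm (266 bp), Hel89B for mor (385 bp), mRpL44 for Snr1 (290 bp), CG12096 for Bap60 (96 bp), Lhr for Bap55 (69 bp), fh for Bap111 (238 bp), Trap1 for Bap170 (250 bp) and Rcd-1 for e(y)3 (398 bp). Where a peak lies between such starts, these data do not tell which gene it belongs to. Counting a conservative summit only where the member's start was the nearest left polybromo alone. The share of all genes under that rule was not taken, and the 18.2% given above is not its counterpart. The median distance of the 4 conservative promoter summits to the member's own start was 101 bp. Over all promoter peaks it was 47 bp, but to the nearest start of any protein-coding gene, so these values are not like measures. The strongest Bap55 and Bap60 summits lay nearer to other starts, 13 bp from Lhr and 50 bp from CG12096.

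The CGATA string occurred within 100 bp of all 4 conservative promoter summits of these genes, against 74.0% of all 2072 conservative promoter summits and 31.7% of the 11427 starts of genes without one. The 4 summits lay at only 3 genes, since Bap60 had 2 that shared a pair of replicate peaks. At the strongest ranked promoter summits the counts were 8 for osa, 5 for polybromo, 3 for Bap55, 3 for Bap170, 2 for Bap60, 2 for mor, 1 for Snr1, 1 for Bap111 and 0 for brm and e(y)3. At least 1 match was thus found at 8 of the 10 genes, against 41.5% of the 10670 genes with a ranked promoter peak. The annotated starts gave a smaller contrast, with a match at 6 of the 10 against 39.3% of all starts. Snr1 and Bap111 had none at their starts. At the strongest summits, at least 3 were found at 4 of the 10, against 13.4% of the 10670 genes. At least 5, as at osa and polybromo, were found at 2.51% of those genes, and at least 8, as at osa, at 8 of the 10670. Among starts of genes without a conservative promoter peak, osa was the only one of 11427 with 8 matches.

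Across all genes the signal was higher where the string was more frequent. The median signal of the strongest ranked promoter peak was 55.7 over the 6242 genes with 0 matches, 63.0 over the 1935 with 1, 130 over the 1060 with 2, 186 over the 759 with 3, 271 over the 186 with 5, and 526 over the 21 with 7 or more. Set against these, osa at 845 was above the upper quartile of 645 for its class, polybromo at 234 was within the quartiles of 199 and 419, and Bap170 at 96.1 and mor at 51.3 were below the lower quartiles of 121 and 78.6. The 2 genes without a match were at 51.8 (brm) and 42.0 (e(y)3), within the quartiles of 36.9 and 79.5. A match is a description of letters, and no binding by BEAF-32 or Dref was measured.

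**Figure D3:**
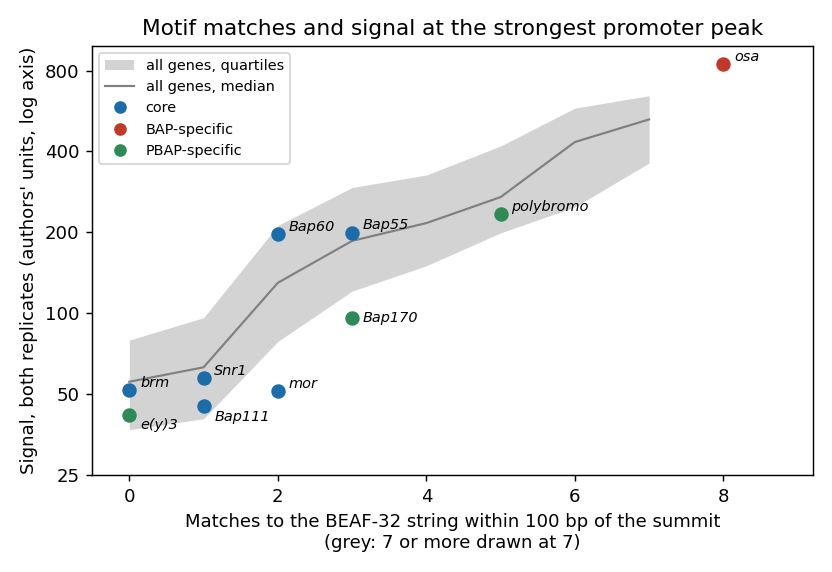
Signal of the strongest ranked promoter peak in both replicates (vertical, log axis) against the number of matches to the BEAF-32 string within 100 bp of its summit (horizontal) for the 10 genes, with the median (grey line) and quartiles (grey band) of all genes with that number of matches. The osa point, with 8 matches and a signal of 845, lies above the band, and mor (51.3) and Bap170 (96.1) lie below it.

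Of the other motifs searched on both strands, the DRE TATCGATA lay within 100 bp of the strongest summit of osa, Bap170 and mor, and at 3 of the 10 starts, against 7.83% of all starts. It occurred at 27.7% of conservative promoter summits and 3.64% of starts without one. Of the 4 conservative promoter summits of these genes, only the weaker one at Bap60, with a signal of 8.58, held it. Motif 1, GGTCACAC, bound by M1BP, and the E-box CACGTG matched at 0 of the 10 starts and at 0 of the 10 strongest summits, against 6.74% and 2.88% of all starts. The GAGA string GAGAG matched at none of the 10 starts and at the e(y)3 summit, against 22.5% of all starts. The mor start held a DRE, with its peak at percentile 49.5 in both replicates.

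Ranked peaks of any IDR were spread along every gene. The 10 genes together held 155 ranked summits in the body or at a start in the list paired with the conservative one, 131 in replicate 1 and 149 in replicate 2, with 54, 45 and 53 of them on osa. Divided by the body length in kb, these summits, which include those up to 500 bp outside the body and so weigh more in short genes, had a median of 2.13 per kb for the 10 genes, against 1.61 for all genes in both replicates, 1.88 against 1.46 in replicate 1 and 2.09 against 1.62 in replicate 2. Among genes between 1611 and 30533 bp long, the range of the 10, 24.8% had a conservative summit in the body or at a start, so the 19.7% given above for all genes is low for genes of this length. Among genes with a single start, as 9 of the 10 have, 15.2% had a conservative promoter peak.

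**Figure D4:**
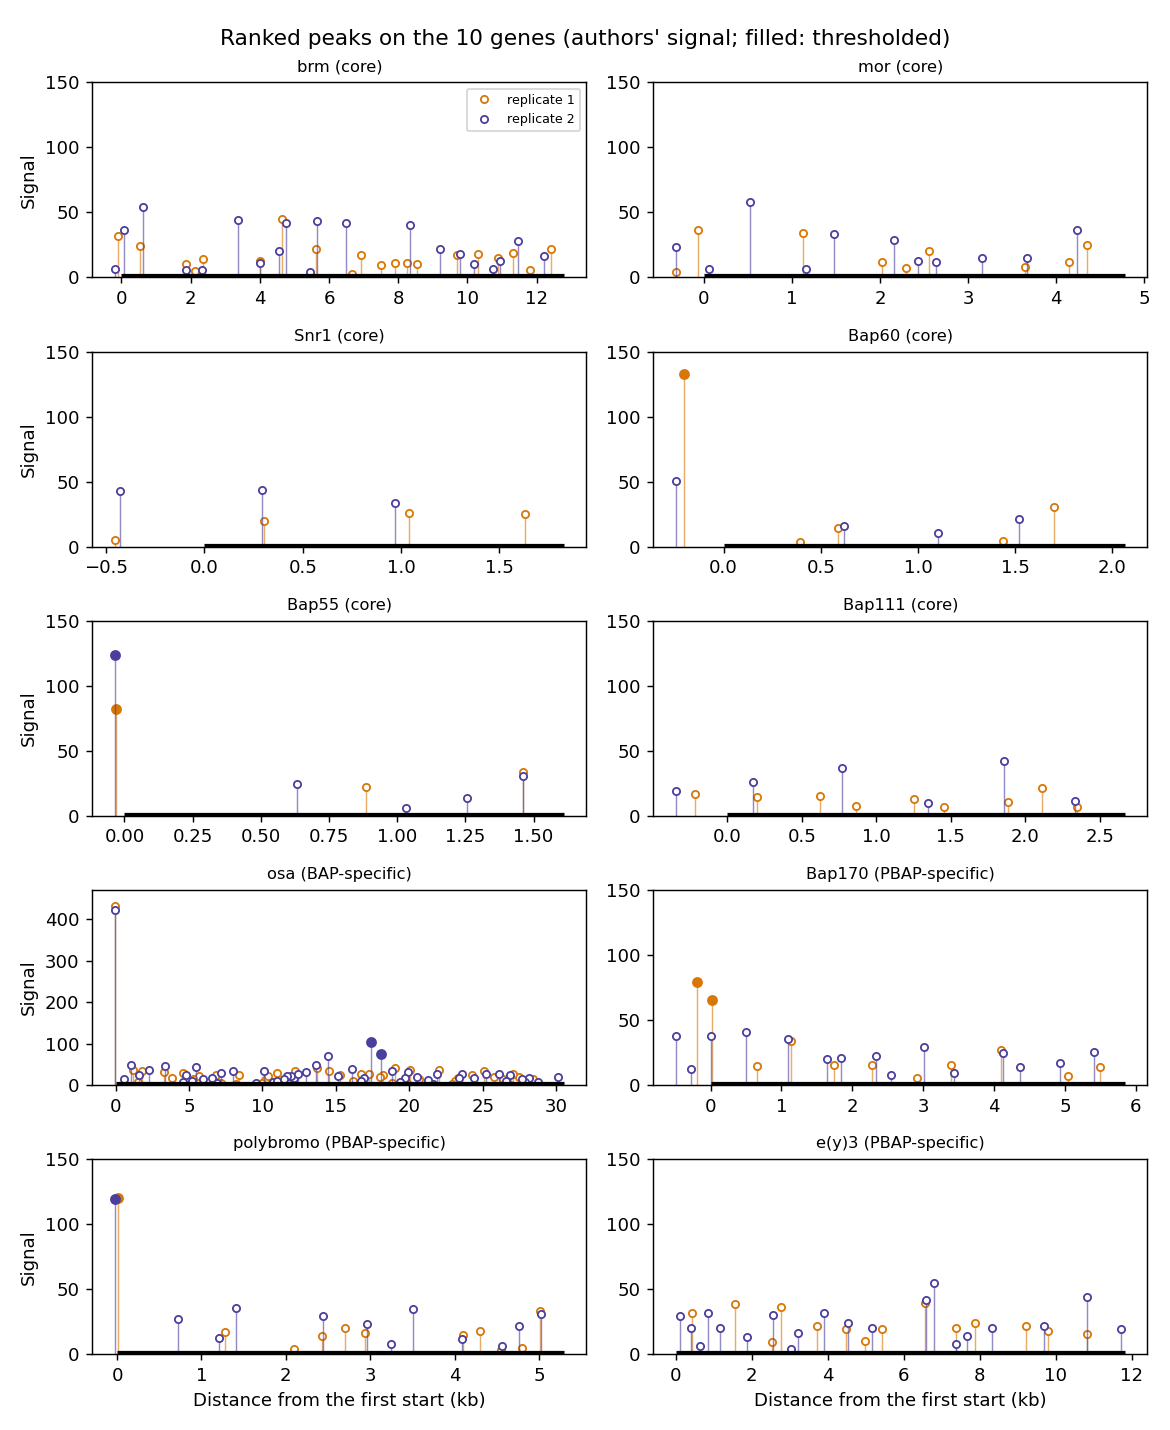
Signal (vertical, authors' units) of every ranked peak on each of the 10 genes against its distance from the annotated start in kb (horizontal, negative upstream), in replicate 1 (orange) and replicate 2 (purple); the black bar is the gene body, filled points were kept in the thresholded list, and the osa panel has its own vertical scale. At osa the open points at the start reach 432 and 422, while the filled intronic points at 17.4 and 18.1 kb belong to replicate 2.

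Further SWI/SNF-related genes were looked at as a list of 7: the actin genes Act5C and Act42A, whose products include a complex subunit, and d4, Bicra, Brd7-9, BCL7-like and CG10555, homologues of further mammalian subunits. Promoter peaks were in the conservative list at 3 of the 7, Bicra, BCL7-like and CG10555, against 18.2% of all genes. The other list from both added Brd7-9 for 4 of 7, against 22.2% of all genes. Each replicate's list held 3 of the 7, against 16.4% of all genes in replicate 1 and 17.7% in replicate 2. At BCL7-like the signal was 603 in both replicates, 342 in replicate 1 and 261 in replicate 2, with the summit 298 bp upstream and 109 bp from the start of Zdhhc8. At CG10555 it was 191 in both, 109 in replicate 1 and 90.6 in replicate 2.

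Bicra, whose mammalian homologue belongs to a further form of the complex, resembled osa in 1 respect. Its conservative peak at 3R 29062889 to 29063114 had a signal of 371 and lay 33 bp from its start and 32 bp from that of Cul5. A stronger peak at 3R 29063606 to 29063881, 68 bp upstream of another of its starts, had 595 in both replicates, 357 in replicate 1 and 265 in replicate 2 at an IDR of 1e-05, and no thresholded list held it. Act5C (102) and Act42A (65.4) had ranked promoter peaks only, and d4 had none in the list of both replicates.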

How the data were processed

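Per the labels, chromatin of tna-eGFP embryos was sheared by sonication and immunoprecipitated with antibody to GFP, in 2 biological replicates. The authors deposited IDR peak lists on dm6, 4 thresholded and 4 ranked. No source used here names their aligner or peak caller. The deposited signal is the caller's own value per peak. The authors gave the q-value and the IDR of each peak as −log10, with a ceiling of 5 for the IDR. A control library was not analysed here, and depth is unknown.

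Summits were assigned to genes of Ensembl release 115 on the 7 assembled arms, as promoter peaks within 500 bp of any start or as body peaks, with Python 3.11.15, numpy 2.4.6, pandas 2.3.3 and matplotlib 3.10.9. The conservative list gave the main counts. Motifs were searched on both strands within 100 bp of a summit or start in the RefSeq genome (Release 6, dm6). On simulated data, 200 of 200 summits placed at known distances were rightly assigned or left unassigned, and 200 of 200 planted motifs were recovered.

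Genes named are the 10 members and the 7 related genes, neighbours nearer to a member's summit, the promoter peaks next in rank to the strongest conservative one, and, chosen after their values were seen, kibra and the head-to-head partners. The members and lists were chosen with earlier results of these data known. Alternatives were the other lists, IDR thresholds of 0.05 and 0.001, a q-value of 0.05, windows of 250 and 1000 bp, 1 peak per replicate pair, nearest-start assignment, interval overlap, and motif windows of 50 and 200 bp. The ranked list at an IDR of 0.01 was added after seeing the data.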

Additional observations from a re-analysis of the deposited data

How the results depend on the processing

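The counts rest on 10 genes and 2 replicates, so 1 peak changes them. Of the values under the other settings, 18 were counted as moved and 68 were not, with a ratio of 1.5 as the mark. Values not counted as moved could still differ. The 3 genes with a promoter peak, for example, became 2 without replicate 1 and 4 without replicate 2. In place of 3 genes with a conservative promoter peak, nearest-start assignment gave 1, with no like share of all genes taken. Genes with a summit in the body or at a start numbered 5, not 3, in the other list from both replicates and at an IDR of 0.05, where their summits numbered 7 and 10, not 4. The median distance to the own start, 101 bp, was 32 to 32 bp in the single-replicate lists and 56 bp both with a window of 250 bp and in the ranked list at an IDR of 0.01 (added after seeing the data). Summits with CGATA, 4 in the conservative list, numbered 2 to 4 when 1 replicate was left out. Core genes with a promoter peak, 2 in the conservative list, numbered 1 to 2 in single-replicate lists, 1 at an IDR of 0.001 and 0 with nearest-start assignment. The BAP-specific gene osa, counted 0 times in the conservative list, counted as 1 in the ranked list at an IDR of 0.05, 0.01 or 0.001, since that list holds its promoter peak. PBAP-specific genes, 1 in the conservative list, numbered 2 in the other list from both and 1 to 2 in single-replicate lists, Bap170 being the gene that differed. The median percentile of member promoter peaks among all conservative promoter peaks, 57.7, ran from 46.3 to 71.0 over the alternatives. The causes were not tested. No paired analysis was possible because there is 1 group. Depth is unknown, so the lack of a kept peak at a gene is not evidence that the protein is absent there.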
